A study of Mus musculus with 1920 samples.

Results

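The mitochondrial genome is transcribed inside the organelle and yields 2 ribosomal RNAs, 13 messenger RNAs and 22 transfer RNAs. These 37 RNAs are every entry of the count table that lies on chrM, out of 48709 gene entries in all, and they were taken by that position alone. They were followed in single microglia from mouse brain and spinal cord, as raw read counts from Smart-seq2, a plate method that primes on poly(A) tails, reads the whole transcript and carries no molecular identifiers. All mice were of the CD1 strain, 16 weeks old. Microglia were sorted from perfused tissue by flow cytometry with antibodies to CD206, CD11b, Ly6G, Ly6C and CD45.

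The cells formed 10 groups. The 6 untreated groups came from spinal cord, corpus callosum, cortex, cerebellum, hippocampus and the facial nucleus. Microglia of the facial nucleus were also taken on day 3 and day 14 after facial nerve axotomy, which cuts the axons of the motor neurons housed in that nucleus (the labels of these wells name the nerve as tissue and the nucleus as source). Microglia of the corpus callosum were also taken at the demyelination and remyelination stages of cuprizone treatment, a dietary toxin that kills oligodendrocytes. The labels give no genotype, feeding period or control diet. They number 4 mice per group, the design text gives 3 to 4, and it states that the untreated regions came from the same mice. Each of the 5 plates held 2 groups: spinal cord with corpus callosum, hippocampus with cortex, facial nucleus with cerebellum, and each model's pair of treated groups together. Treated and untreated groups were therefore never on 1 plate, and for each treated group against its untreated tissue the plate and the treatment cannot be told apart.

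Of 1900 wells labelled as cells, 1647 passed limits of 20000 gene counts, 500 detected genes and less than 50% spike-in counts, and were kept whatever their mitochondrial share. They were summed per mouse and group into 40 sums of 29 to 47 cells, 5454018 to 19964472 gene counts and 96237 to 536023 chrM counts. The microglial genes P2ry12 and Tmem119 were read in every group, at mean levels of 1240 to 9800 and 338 to 4460 CPM, which is the gene's counts scaled to a fixed total of gene counts. None of the 20 empty control wells passed the cell filters; they held a median of 11.5 chrM counts, against 2789 in a kept cell. In summed counts, fewer cells of a kind and less RNA per cell cannot be told apart.

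Both strands of the mitochondrial genome are transcribed as long precursors, from which the tRNAs are cut out so that the mRNAs and rRNAs between them are released. The 13 proteins are core subunits of 4 enzyme complexes of oxidative phosphorylation: complex I (NADH dehydrogenase, the Nd genes), complex III (cytochrome bc1, Cytb), complex IV (cytochrome c oxidase, the Co genes) and complex V (ATP synthase, the Atp genes). All other subunits of these complexes, and the whole of complex II, are encoded in the nucleus. Microglia, the brain's own macrophages, use this system together with glycolysis.

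A copy of part of the mitochondrial genome lies in the nuclear genome, on the minus strand of chromosome 1, where 7 annotated pseudogenes run from 24611535 to 24616197 (GRCm38). Their transcripts match chrM in identical runs, the first of which starts at base 6394 and the last of which ends at base 11042. This is a span of 4649 bases, with spaces between the runs that the transcripts do not cover. The lines that follow show, from GENCODE transcripts of the same build, how close the copy is at the only base by which Gm28438 differs from mt-Nd3 (T3C, counted from the first base of the gene, in capitals) and at the place where the identical run of mt-Co1 and Gm29216 begins (in capitals).
mt-Nd3, chrM:9459-9508, plus strand: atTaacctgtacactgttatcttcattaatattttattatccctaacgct
Gm28438, chr1:24613070-24613119, minus strand: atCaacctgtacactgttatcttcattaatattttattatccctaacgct
mt-Co1, chrM:6381-6440, plus strand: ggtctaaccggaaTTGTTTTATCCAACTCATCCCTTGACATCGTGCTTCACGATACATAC
Gm29216, chr1:24616138-24616197, minus strand: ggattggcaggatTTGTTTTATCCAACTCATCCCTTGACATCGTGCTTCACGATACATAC

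The 11 chrM genes that lie wholly inside that span had 31 counts between them, out of 9464922 chrM counts in all kept cells. These are mt-Co2 with 1 count, mt-Atp8 with 0, mt-Atp6 with 20, mt-Co3 with 5, mt-Nd3 with 1, mt-Nd4l with 3, and 5 tRNAs of which mt-Tr alone had a count, at 1. Thus 6 of the 13 protein genes, among them both mitochondrial subunits of ATP synthase, could not be measured in any group. The identical run covers 681 of the 684 bases of mt-Co2, 678 of 681 of mt-Atp6, 783 of 784 of mt-Co3 and 294 of 297 of mt-Nd4l. Of the 50-base windows of mt-Nd3, 98.0% occur in Gm28438, and that pseudogene had 1284 counts against 1 for mt-Nd3; the other 6 pseudogenes had 1 to 18 counts each. No window of mt-Atp8 or of the 5 tRNAs occurs in an annotated transcript outside chrM, since the 7 pseudogenes do not cover the spaces between them, so their sharing was not measured. How the counting treated reads that match several places is not given in the sources used here, and its part in these low counts was not tested.

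At the edges of the span the same limit is partial. For mt-Co1 the last 479 of 1545 bases are in the identical run, and for mt-Nd4 the first 876 of 1378. The share of 50-base windows found in any annotated transcript outside chrM is a wider measure. It was 51.1% for mt-Co1, whose windows also occur in Gm11512 and Gm13340, and 62.2% for mt-Nd4, from Gm28439 alone. For the other countable genes it was 8.19% in mt-Nd2, 7.61% in mt-Nd5, 1.04% in mt-Rnr2 and 0% in mt-Rnr1, mt-Nd1, mt-Nd6 and mt-Cytb. Comparisons between groups within 1 gene share this limit in every group.

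The 9 countable genes, 7 protein genes and both rRNAs, held nearly all chrM counts. Cytochrome b, the only mitochondrial subunit of complex III, led with 22.7% of them (2151657 counts), followed by mt-Rnr2, the large ribosomal RNA, with 20.6%, the complex I subunit mt-Nd1 with 19.9% and the catalytic complex IV subunit mt-Co1 with 15.0%. Then came the complex I subunits mt-Nd5 with 6.19% and mt-Nd4 with 5.81%, the small ribosomal RNA mt-Rnr1 with 5.60%, and mt-Nd2 and mt-Nd6 with 2.20% and 1.77%. Divided by the length that is not in an identical run, the mean level over the 40 sums was 4400 CPM per kilobase for mt-Nd1, 4210 for mt-Cytb, 2940 for mt-Co1, 2640 for mt-Rnr2, 2470 for mt-Nd4, 1280 for mt-Rnr1, 719 for mt-Nd6, 706 for mt-Nd5 and 457 for mt-Nd2. Only the runs shared with the chromosome 1 pseudogenes were left out of the length, not windows shared with other transcripts. On this length scale mt-Nd5 and mt-Nd6 were level with each other, and mt-Nd1 and mt-Cytb were at the top, although complex I genes spanned the whole range.

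**Figure D1:**
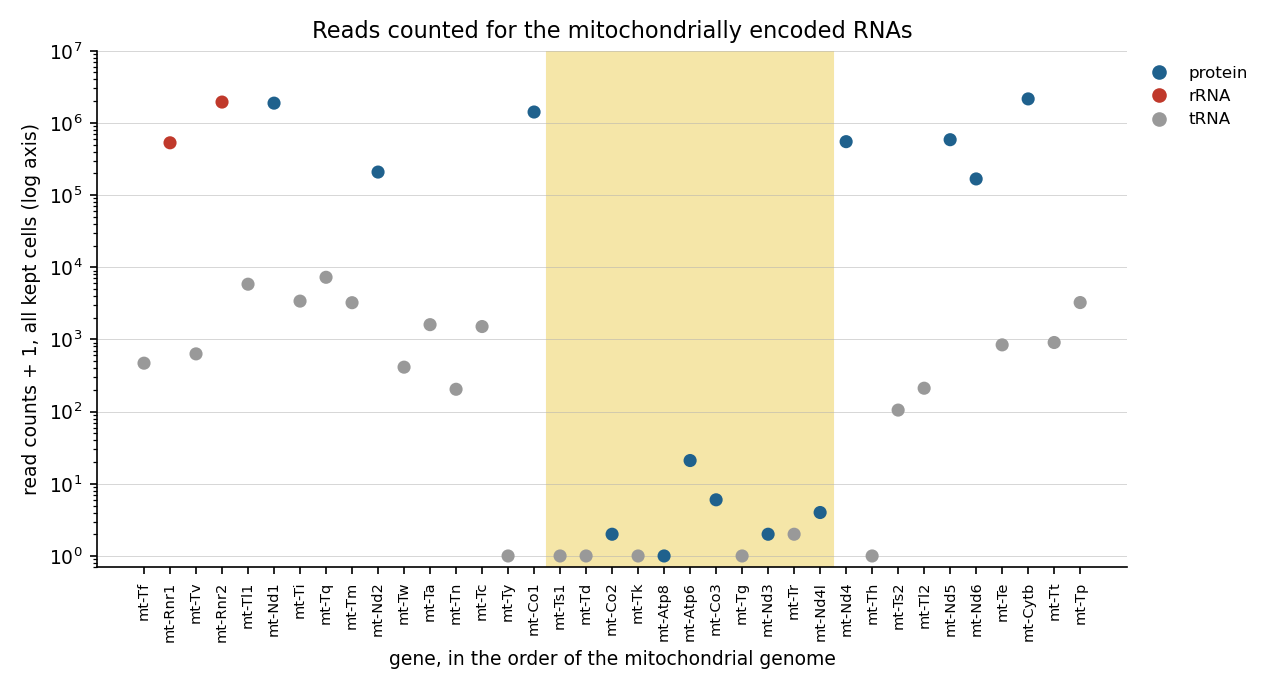
Read counts plus 1 of each of the 37 mitochondrial RNAs over all kept cells, on a log axis, in their order along the mitochondrial genome and coloured by RNA class; genes with no count sit at the bottom. The 11 genes in the shaded stretch, which lies between the outer ends of the matches to chromosome 1 pseudogenes, have 0 to 20 counts each, while mt-Cytb outside it reaches 2151657.

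mt-Nd5 and mt-Nd6, both subunits of complex I, face each other on opposite strands and overlap over bases 13552 to 13565. They are shown because reads over the overlap fit both genes. The overlapping 14 bases are in capitals, with each gene shown 5′ to 3′ up to its last base.
mt-Nd5, chrM:13526-13565, plus strand: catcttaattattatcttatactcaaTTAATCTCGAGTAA
mt-Nd6, chrM:13552-13591, minus strand: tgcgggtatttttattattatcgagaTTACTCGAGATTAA
mt-Nd6 is the only protein gene on the minus strand, which carries 9 of the 37 genes, the other 8 being tRNAs. The strand setting of the counting is not given in the sources used here, and Smart-seq2 does not mark strand, so reads of mt-Nd6 and reads antisense to its position cannot be told apart. Across cells within a group, the levels of mt-Nd5 and mt-Nd6 were related more closely than those of any other of the 36 pairs of countable genes, with a median Spearman rho over the 10 groups of 0.79 and a range of 0.70 to 0.86. The next pair, mt-Nd1 and mt-Cytb, had a median of 0.67, and the lowest, mt-Nd2 with mt-Nd5, 0.37. These values describe 129 to 181 cells per group, whose levels share each cell's library and depth.

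The 22 tRNAs had 29842 counts together, and 6 of them had none. mt-Tq, the glutamine tRNA, led with 7262 counts, then mt-Tl1 (leucine) with 5826, mt-Ti (isoleucine) with 3396, mt-Tp (proline) with 3244 and mt-Tm (methionine) with 3229. A gene count does not separate mature tRNAs from their precursors. Over the 40 sums tRNA genes took 0.154% to 0.612% of chrM counts.

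Across all 10 groups, chrM RNAs made up 2.12% of gene counts. Cerebellum was lowest at 1.07% ± 0.0986 (SD, n = 4, as for all group means here), followed by cortex at 1.31% ± 0.261, facial nucleus at 1.35% ± 0.142, spinal cord at 1.39% ± 0.207 and corpus callosum at 1.56% ± 0.424. The p-values given below judge a difference against the spread between such sums, estimated over the groups of a fit. Neighbours in this order overlapped. Hippocampus was at 2.13% ± 1.07, with mice at 1.09%, 1.58%, 2.29% and 3.55% and 1.35% ± 0.211 without the cells that gave 25% or more of their counts to chrM. The treated groups stood at 2.43% ± 0.336 for demyelination, 2.44% ± 0.545 for axotomy day 14, 3.28% ± 0.595 for remyelination and 4.04% ± 0.617 for axotomy day 3.

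**Figure D2:**
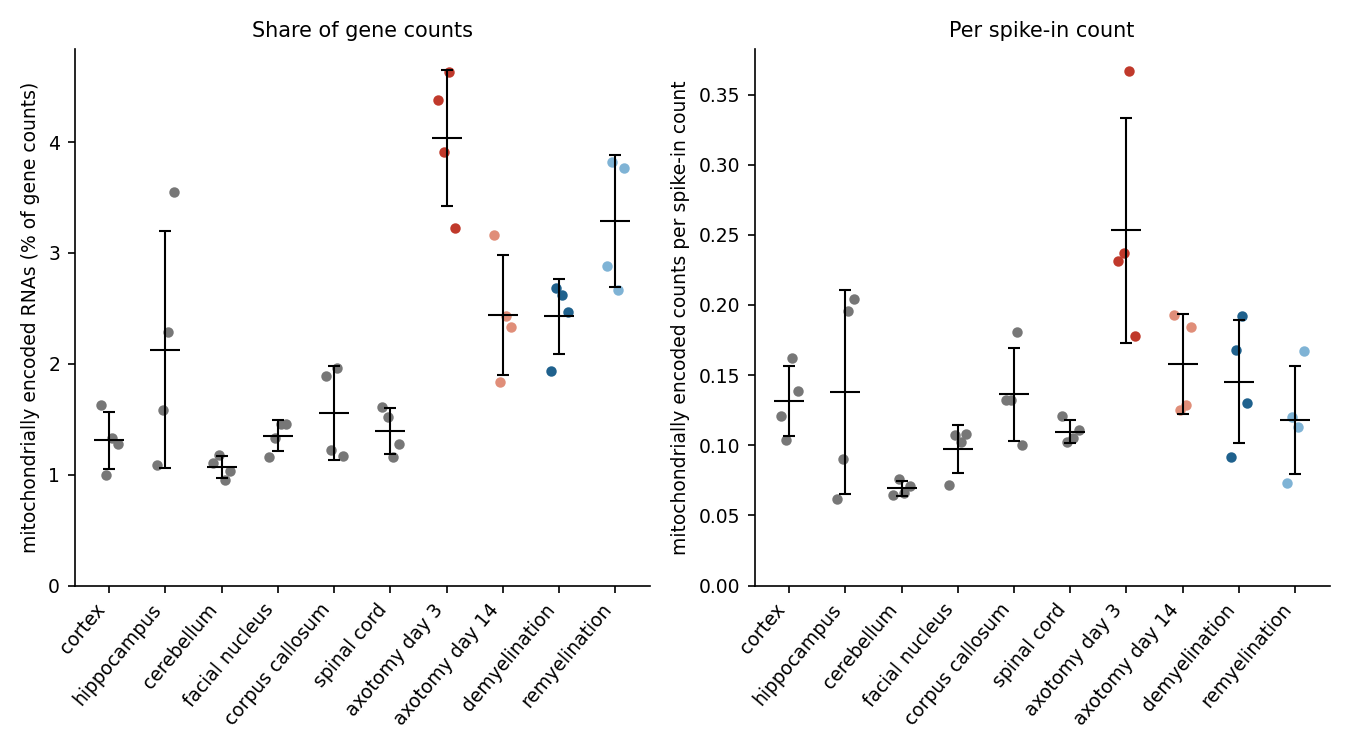
Mitochondrial RNA in the 10 groups, 1 point per mouse with the group mean and SD: as a percent of gene counts, and as chrM counts per spike-in count. Axotomy day 3 stands apart from facial nucleus on both scales, while remyelination is above corpus callosum as a share of gene counts only, and demyelination overlaps it on both scales (lowest mouse 1.94% against a highest of 1.96% as a share).

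Gene by gene, levels are given as mean CPM of gene counts over 4 mice. mt-Cytb stood at 2870 ± 773 in cerebellum, 2920 ± 321 in facial nucleus, 2950 ± 469 in cortex, 3470 ± 480 in spinal cord, 3580 ± 934 in corpus callosum and 4360 ± 2700 in hippocampus. In the treated groups it was at 5210 ± 744 at demyelination, 5680 ± 912 on day 14, 7240 ± 1530 at remyelination and 9870 ± 1220 on day 3. mt-Co1 went from 1610 ± 273 in cerebellum to 6460 ± 1020 on day 3, with hippocampus (3280 ± 1660) next to day 14 (3480 ± 770) and demyelination (3740 ± 746). The hippocampus means, here and for the genes below, include a cell of replicate 4 that held 60.6% of its mouse's chrM counts. They also include a cell of replicate 3 that held 46.2% of its mouse's. For mt-Cytb and mt-Co1 cerebellum was the lowest group and day 3 the highest.

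Among the complex I genes, mt-Nd1 was at 2070 ± 117 CPM in cerebellum, 2710 to 3910 in the means of the other untreated groups, and 4470 ± 709, 5520 ± 1510, 6630 ± 1360 and 7720 ± 1230 at demyelination, day 14, remyelination and day 3. mt-Nd5 was at 647 ± 214 in cerebellum, 813 to 1050 in the means of the other untreated groups and 2810 ± 469 on day 3. mt-Nd4 ran from 737 ± 143 in cerebellum to 2340 ± 308 on day 3, mt-Nd6 from 200 ± 73.2 to 852 ± 139, and mt-Nd2 from 239 ± 109 to 841 ± 91.9 in the same groups. Of the rRNAs, mt-Rnr1 was likewise highest on day 3 (3280 ± 842, against 1730 ± 400 at remyelination), whereas mt-Rnr2 was highest at remyelination (7730 ± 2160, against 6080 ± 1160 on day 3, with overlapping SDs).

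By RNA class, protein genes were 69.3% to 78.4% of chrM counts in the group means and rRNAs 21.3% to 30.4%. At demyelination rRNAs took 28.5% to 31.6% of chrM counts, above corpus callosum at 20.1% to 27.9%, and protein genes 68.1% to 71.2%, below its 71.8% to 79.6%. Untreated hippocampus had rRNAs at 27.5% to 32.7%. On day 3, on day 14 and at remyelination both shares overlapped those of the untreated tissue. Among protein counts, complex I took 46.5% to 52.0%, complex III 28.2% to 34.2% and complex IV 18.2% to 22.6%. No treated group left the range of the untreated groups in these means by complex. The share of complex IV on day 3 (20.1% to 21.7%) did not overlap that of facial nucleus (16.1% to 19.1%), whereas the shares of complexes I and III did.

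The ratio of the large to the small ribosomal RNA set the axotomy groups apart. Counts of mt-Rnr2 per count of mt-Rnr1 were 1.98, 1.82, 1.69 and 2.02 on day 3 after axotomy and 1.79, 2.00, 2.37 and 1.89 on day 14, against 4.24, 4.35, 4.29 and 4.02 in facial nucleus. Neither axotomy group overlapped any mouse of the other 8 groups, whose lowest value was 2.93 in spinal cord. The ratio also differed among groups without treatment, from 6.12 ± 0.582 in cortex and 4.90 ± 0.787 in hippocampus through 4.36 ± 0.353 in cerebellum to 3.37 ± 0.444 in spinal cord, with 5.39 ± 0.715 in demyelination and 4.42 ± 0.400 in remyelination. On each of the 5 plates the ranges of its pair of groups overlapped, day 3 with day 14 included. For the axotomy ratio plate and injury cannot be told apart.

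**Figure D3:**
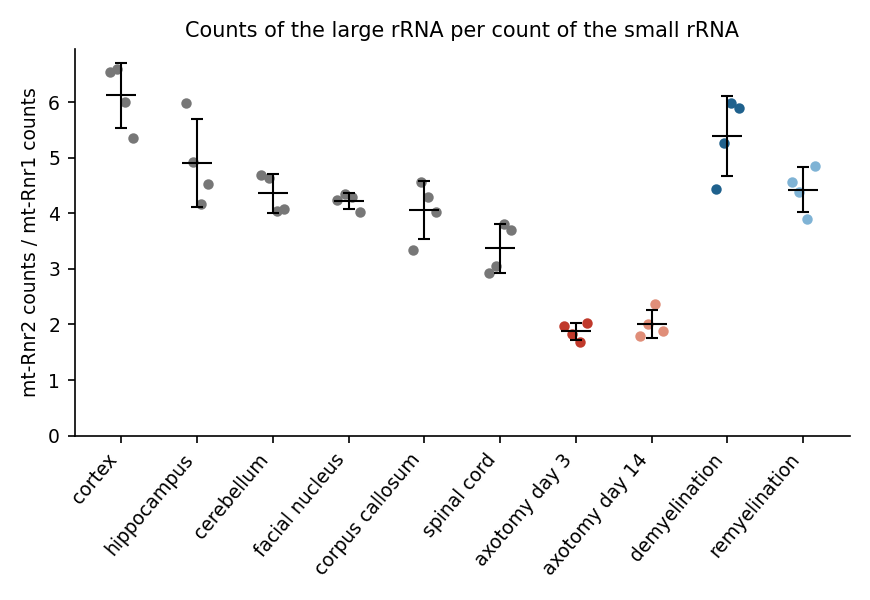
Counts of mt-Rnr2 per count of mt-Rnr1, 1 point per mouse with group mean and SD, with the groups ordered by plate. All 8 axotomy mice lie between 1.69 and 2.37, below every mouse of the other groups.

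The untreated regions were compared first. In the fit over the 24 sums of untreated tissue, 1 of the 21 chrM RNAs tested, mt-Rnr2, passed the test for any difference among regions (edgeR's quasi-likelihood test, Benjamini-Hochberg adjusted p = 0.0305), beside 0.100% of all genes tested. This fit had no term for the mouse, although the design text states that these regions came from the same mice. The labels do not say whether a replicate number marks 1 mouse across plates. The mt-Rnr2 call was lost with the replicate number as a block and without replicate 2, 3 or 4, and 3 chrM RNAs were called without replicate 1. mt-Rnr2 stood at 3040, 4140, 5170 and 10400 CPM in the 4 hippocampus mice, 4150, 2060, 2790 and 2640 in cortex and 1870, 2190, 1480 and 1700 in cerebellum. Hippocampus held 2 cells with a very high share. A cell of replicate 4 gave 59.8% of its counts to chrM and 27.0% of all mt-Rnr2 counts of hippocampus, and a cell of replicate 3 had 34.2% and 13.2%. Without cells of 25% or more, no chrM RNA was called among the regions.

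Between untreated regions that shared a plate, no chrM RNA was called by edgeR. For cortex against hippocampus (0% of all genes called), 5 of 21 chrM RNAs had an unadjusted p under 0.05, and DESeq2 called 3, mt-Rnr1, mt-Rnr2 and mt-Co1, all lower in cortex. Over all genes DESeq2 called 278 higher and 500 lower there. For cerebellum against facial nucleus (0.00436% of all genes called), 2 of 21 had an unadjusted p under 0.05 and DESeq2 called 0. For spinal cord against corpus callosum (0% of all genes called) both counts were 0. The share of all genes at an unadjusted p under 0.05 is not given, here or below, so such counts have no background to be read against. The log2 differences of the 9 countable genes ran from -0.65 to 0.00 in cerebellum against facial nucleus and from -0.58 to -0.06 in spinal cord against corpus callosum, with standard errors of 0.22 to 0.36.

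On day 3 after facial nerve axotomy, mitochondrial RNAs were higher than in untreated facial nucleus across rRNAs and complexes I, III and IV. Of the 21 chrM RNAs tested, 8 rose and 0 fell, beside 0.140% of all genes called higher (27 of 19302), so that 8 of those 27 genes were mitochondrial. Over all genes edgeR called 27 higher and 1 lower, and DESeq2 232 higher and 117 lower; DESeq2 called all 9 countable chrM genes higher. The median log2 difference was 1.72 over the 21 and 0.04 over all genes tested. All 12 tRNAs tested had estimates above 0, with a median of 1.57, but none was called by edgeR or by DESeq2, and none had an unadjusted p under 0.05.

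Cytochrome b was at 12700, 11400, 11600 and 8690 CPM on day 3, against 2930, 2620, 3220 and 2530 in facial nucleus. Every day 3 mouse was above every untreated mouse, a log2 fold change of 1.97 (SE 0.16, edgeR's quasi-likelihood adjusted p = 2.65e-06). Among the 8 called genes the small ribosomal RNA mt-Rnr1 rose most, from 610, 509, 742 and 753 CPM to 3860, 3690, 4740 and 2440, a log2 fold change of 2.49 (SE 0.25, edgeR adjusted p = 5.75e-05). The large ribosomal RNA mt-Rnr2 rose least of the 8, from 2590, 2220, 3180 and 3020 CPM to 7670, 6700, 7990 and 4920, a log2 fold change of 1.31 (SE 0.20, edgeR adjusted p = 0.00441). The groups did not overlap for either rRNA, and the difference between their fold changes is the shift in ratio given above.

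For complex IV, mt-Co1 went from 1250, 1850, 1960 and 2050 CPM to 7970, 7530, 8140 and 5380, a log2 fold change of 2.03 (SE 0.21). Among complex I subunits, mt-Nd6 rose by a log2 fold change of 2.08 (SE 0.26), mt-Nd5 by 2.00 (SE 0.25), mt-Nd4 by 1.72 (SE 0.24) and mt-Nd1 by 1.55 (SE 0.19). The edgeR adjusted p-values of these 5 genes lay between 5.75e-05 and 0.00271. mt-Nd2, the ninth countable gene, was at 1050, 1090, 823 and 813 CPM against 189, 324, 344 and 423, and these ranges did not overlap. Its log2 fold change of 1.56 (SE 0.33) did not pass the test (edgeR adjusted p = 0.0825).

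By day 14 the levels lay between those of day 3 and of untreated tissue. Against facial nucleus 2 of 21 chrM RNAs were higher, beside 0.0155% of all genes (3 of 19302, with none lower; DESeq2 called 148 higher and 41 lower). They were mt-Rnr1 (log2 fold change 1.51, SE 0.24) and mt-Cytb (0.93, SE 0.15), each with an edgeR adjusted p of 0.0468. mt-Cytb stood at 5730, 4370, 6080 and 5380 CPM, above all 4 untreated mice. The other 7 countable genes had estimates of 0.41 to 1.02. Both calls were lost without any of the 4 facial nucleus mice or without day 14 replicate 1, and the mt-Cytb call without day 14 replicate 3, with estimates of 1.33 to 1.58 for mt-Rnr1 and 0.88 to 1.00 for mt-Cytb.

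On the shared axotomy plate, mt-Cytb was lower on day 14 than on day 3 by a log2 difference of -1.04 (SE 0.15, edgeR adjusted p = 0.0339). It was the only gene of the whole table called lower, 0.00518% of those tested. DESeq2 called 124 genes higher and 114 lower, with 4 chrM genes among the lower. The other 8 countable genes had estimates of -0.55 to -1.30, and 8 of the 9 had an unadjusted p under 0.05, with mt-Nd2 the exception. As a share of gene counts all chrM RNAs together were at 1.84% to 3.16% on day 14 and 3.23% to 4.63% on day 3, which did not overlap. The mt-Cytb call was lost without day 3 replicate 1, 2 or 3 or day 14 replicate 2 or 3, where the estimate ran from -0.93 to -1.06. These 3 axotomy comparisons share sums pairwise, so their values are not independent.

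Totals set by spike-in RNA, a fixed amount added to each well, left the day 3 result higher. Per spike-in count, chrM counts were 0.253 ± 0.0804 on day 3, 0.158 ± 0.0358 on day 14 and 0.0970 ± 0.0170 in facial nucleus, and neither axotomy group overlapped the untreated one. In the fit with spike-in totals all 9 countable genes had estimates above 0 on day 3, from 0.93 to 2.13, of which mt-Rnr1, mt-Co1 and mt-Cytb were called, while the median of all genes moved from 0.04 to -0.38. Genes of the cell cycle also stood higher in the same cells, with summed levels of 931 to 1740 CPM on day 3 and 26.3 to 309 CPM in facial nucleus for a list of 12 proliferation genes. Of these 2, Pimreg and Ccna2, were called and 10 had an unadjusted p under 0.05; Pimreg was at 0 in facial nucleus. Without the cells that had a read of 3 or more of those genes, 7 chrM RNAs were still called higher, mt-Rnr2 being the one lost. Malat1, a nuclear long noncoding RNA, fell on day 3, from 5680 ± 417 to 2840 ± 381 CPM (edgeR adjusted p = 0.00457), and its part in the mitochondrial share was not tested.

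**Figure D4:**
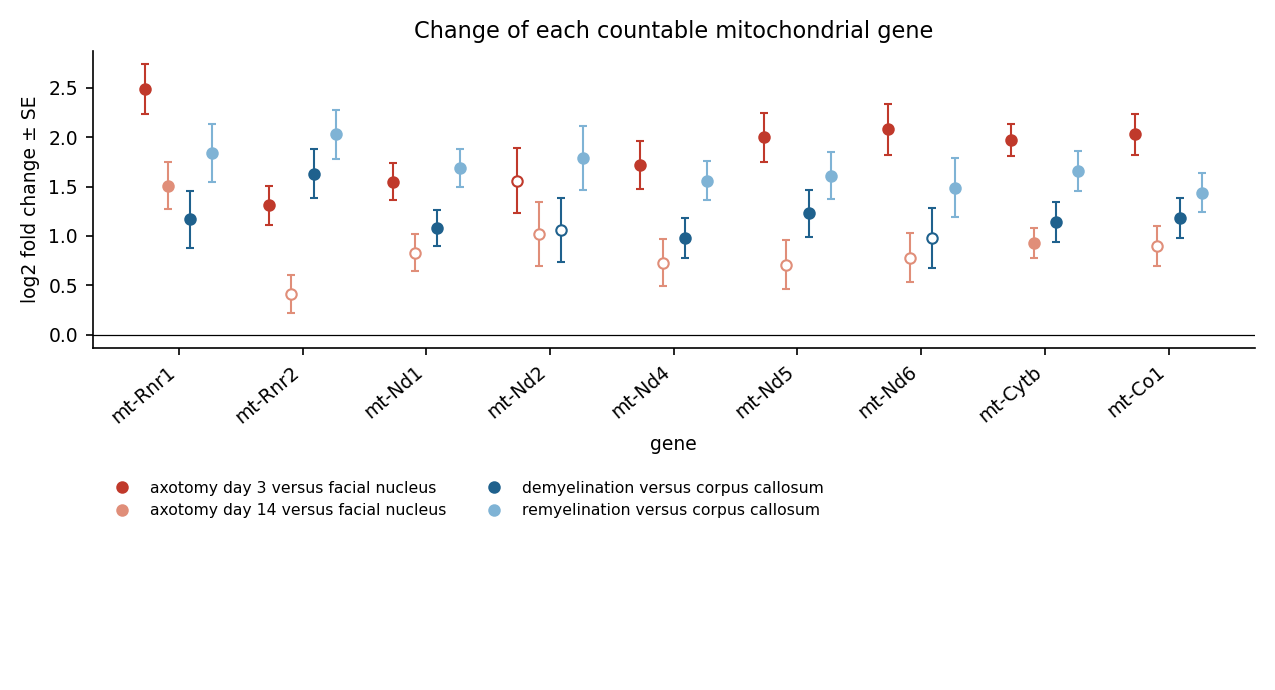
Log2 fold change on TMM-scaled totals (edgeR's factor for each sum), with bars of 1 standard error, of the 9 countable mitochondrial genes in each treated group against its untreated tissue. Filled points passed the test and open points did not. Every estimate is above 0 here, whereas with spike-in totals the demyelination estimates run from -0.20 to 0.51 and the remyelination estimates from -0.48 to 0.15.

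At both stages of cuprizone treatment mitochondrial RNAs took a larger mean part of the gene counts than in untreated corpus callosum. The ratio of mean shares was 1.56 at demyelination, where mice overlapped, and 2.1 at remyelination, where they did not. Unless stated, the tests, CPM and fold changes that follow use totals scaled by TMM, edgeR's factor for each sum, as in the other fits. On that scale the changes of the 9 countable genes were larger than these ratios. Of 20 chrM RNAs tested, 7 were higher at demyelination, beside 3.08% of all genes (433 of 14057), and 9, all the countable ones, at remyelination, beside 2.51% (353 of 14057). The median log2 difference over the 20 was 1.07 and 1.64, against -0.33 and -0.31 over all genes. Relative to spike-in totals none was called at either stage and the direction was lost, with 4 of 9 estimates above 0 at demyelination and 1 of 9 at remyelination. The 3 cuprizone comparisons again share sums pairwise.

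Among the 9 countable genes the large ribosomal RNA had the highest estimate at both stages. mt-Rnr2 stood at 3120, 1470, 2940 and 1400 CPM in corpus callosum, at 5880, 7570, 7730 and 6470 at demyelination and at 8230, 11000, 6440 and 10700 at remyelination. No treated mouse overlapped an untreated one on this scale. The log2 fold changes on TMM-scaled totals were 1.63 (SE 0.25, edgeR adjusted p = 0.000806) and 2.03 (SE 0.25, edgeR adjusted p = 0.000123), against 0.51 and 0.15 with spike-in totals. The small ribosomal RNA mt-Rnr1 had 1.17 (SE 0.29) and 1.84 (SE 0.29), against 0.06 and -0.02 with spike-in totals.

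Among protein genes, mt-Cytb went from 2980, 2130, 3750 and 2040 CPM to 4910, 6660, 6890 and 5550 at demyelination and 8680, 11200, 7110 and 7420 at remyelination. The log2 fold changes were 1.14 (SE 0.20, edgeR adjusted p = 0.00269) and 1.66 (SE 0.20, edgeR adjusted p = 0.000103), and both estimates were below 0 with spike-in totals, at -0.01 and -0.31. On TMM-scaled totals mt-Co1 changed by 1.18 and 1.44, mt-Nd1 by 1.08 and 1.69, mt-Nd4 by 0.98 and 1.56 and mt-Nd5 by 1.23 and 1.61, with standard errors of 0.18 to 0.24. With spike-in totals the same genes had 0.03 and -0.48, -0.06 and -0.20, -0.20 and -0.44, and 0.11 and -0.31. mt-Nd2 (1.06, edgeR adjusted p = 0.0582) and mt-Nd6 (0.98, edgeR adjusted p = 0.0644) did not pass the test at demyelination, and passed it at remyelination with 1.79 and 1.49 (edgeR adjusted p = 0.00369 and 0.0101). For mt-Nd2 the demyelination mice, at 347 to 669 CPM, overlapped the untreated ones at 147 to 355.

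The chrM total per spike-in count was 0.136 ± 0.0331 in corpus callosum, 0.146 ± 0.0440 at demyelination and 0.118 ± 0.0383 at remyelination, and all 3 overlapped. All gene counts per spike-in count were 8.90 ± 1.60, 5.90 ± 1.15 and 3.58 ± 0.894, and remyelination did not overlap corpus callosum. With spike-in totals the median log2 difference of all genes was -1.55 at demyelination and -2.24 at remyelination. The split of all called genes moved with the scaling: 433 higher and 292 lower at demyelination on TMM-scaled totals, 651 and 1294 with DESeq2, 90 and 1047 with spike-in totals, and at remyelination 353 and 85, 634 and 938, and 57 and 2800.

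Remyelination against demyelination, within 1 plate, had 0 of 20 chrM RNAs called by edgeR and by DESeq2, beside 0.0427% of all genes, although 5 had an unadjusted p under 0.05 and all 20 estimates were above 0. The demyelination effect and the day 3 axotomy effect were compared in 1 fit over all groups. No chrM RNA of 23 differed by edgeR (4 with an unadjusted p under 0.05, 3 called lower by DESeq2), beside 0.435% of all genes called in either direction. For mt-Rnr1 the difference of effects was -1.29 (SE 0.42, edgeR adjusted p = 0.0880), and for mt-Rnr2 0.35 (SE 0.38). With spike-in totals 5 genes, mt-Rnr1, mt-Co1, mt-Nd4, mt-Nd6 and mt-Cytb, were called lower for demyelination than for axotomy.

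Other RNAs moved with the cuprizone groups. Malat1 fell from 2720 ± 405 CPM to 362 ± 42.9 at demyelination and 1170 ± 409 at remyelination. In this paragraph the sums over lists and the levels of Fn1 and Ccr2 are CPM without TMM scaling, so they are on another scale than Malat1, Atf3 and Egr1. The 12 microglial markers summed to 50000 to 56000 CPM in corpus callosum, 21300 to 25900 at demyelination and 20400 to 28300 at remyelination, with none at 0. Of the 12, 8 were called at demyelination and 6 at remyelination, all lower except Trem2. A list of 8 monocyte genes summed to 386 to 1600 CPM at demyelination and 15.3 to 173 in corpus callosum, most of it Fn1 at 870 ± 515 CPM against 6.05 ± 5.73, while Chil3 and Ly6c2 were at 0 and Ccr2 at 5.81 ± 10.6 CPM against 24 ± 19.6. A list of 8 border macrophage genes summed to 131 to 255 CPM at remyelination and 4.81 to 17.6 in corpus callosum, of which Ms4a7 was called and Cd163 and Lyve1 were at 0. Of 14 dissociation and stress genes, Atf3 and Egr1 were called higher at both stages. Atf3 was at 147 ± 30.3 and 246 ± 53.0 CPM against 7.15 ± 8.62, and Egr1 at 53.0 ± 38.2 and 135 ± 74.3 against 0.77 ± 0.747. The list's sums, 397 to 630 and 616 to 1030 CPM, overlapped the 528 to 739 of corpus callosum. Xist, Neat1 and Stmn2 were called lower at demyelination, Fn1 higher at both stages, and Mbp and Flt1 higher at remyelination. Some of these calls were near the threshold with a wide spread. At remyelination Fn1 ran from 0.366 to 213 CPM against 1.18 to 14.1 (edgeR adjusted p = 0.0488). On TMM-scaled totals Mbp was at 309 ± 267 against 53.6 ± 25.4 (edgeR adjusted p = 0.0499) and Flt1 at 188 ± 135 against 16.3 ± 16.4 (edgeR adjusted p = 0.0452). Stmn2 in corpus callosum was at 47.2 ± 84.3 (edgeR adjusted p = 0.0437). Median detected genes per cell were 2926 in corpus callosum, 2137 at demyelination and 1517 at remyelination. The part of these in the mitochondrial share was not tested.

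The nuclear genes of the same complexes give the other side of the assembly. On day 3 after axotomy none of 73 nuclear subunits of complexes I, III, IV and V was called by edgeR, and DESeq2 called 5 higher. Of these 73, 65 had estimates above 0, with a median log2 difference of 0.91 beside 0.04 for all genes, and 10, 1, 6 and 5 subunits of complexes I, III, IV and V had an unadjusted p under 0.05. The share of all genes at that unadjusted threshold is not given. Cox4i1, the regulatory subunit of complex IV, was at 416 ± 83.4 CPM against 173 ± 56.9 (log2 1.26, SE 0.30, edgeR adjusted p = 0.152), and Atp5a1, the alpha subunit of ATP synthase, at 620 ± 180 against 286 ± 55.4 (log2 1.12, SE 0.29, edgeR adjusted p = 0.258). Of the 7 countable mitochondrial subunits all but mt-Nd2 had passed the test, and the difference between those gene sets was not tested. On day 14 none of the 73 was called by edgeR or DESeq2, 51 had estimates above 0 and the median was 0.30.

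At demyelination 25 of the 73 were higher and none lower on TMM-scaled totals, with a median of 1.59 against -0.33 for all genes. By complex these were 10 of 36 for I, 3 of 9 for III, 7 of 12 for IV and 5 of 16 for V, read against the 3.08% of all genes called higher. Among them were Cox4i1 (805 ± 90.1 against 203 ± 81.7 CPM), Cox6b1 (327 ± 49.4 against 81.9 ± 23.7), Ndufa1, an accessory subunit of complex I (159 ± 47.0 against 18.4 ± 8.11), Atp5c1, the gamma subunit of ATP synthase (510 ± 123 against 130 ± 31.6) and Uqcrq of complex III (190 ± 60.4 against 48.1 ± 21.8). The others with the smallest p were Ndufb6, Ndufa2, Ndufc1, Ndufb8 and Ndufa3 of complex I, Uqcrh and Uqcr10 of complex III, Cox6a1, Cox8a, Cox7a2l and Cox7a2 of complex IV, and Atp5j, Atp5b, Atp5e and Atp5f1 of ATP synthase. Complex II, which has no mitochondrial gene, had 2 of 4 subunits higher, Sdhc and Sdhb.

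At remyelination 12 of the 73 were higher and none lower on TMM-scaled totals, with a median of 1.22. They were Ndufa1, Ndufa6, Ndufb6 and Ndufc1 of complex I, Uqcrh of complex III, Cox6b1, Cox4i1, Cox8a, Cox7a2l and Cox6a1 of complex IV, and Atp5j and Atp5b of ATP synthase. Cox6b1 was at 327 ± 37.4 CPM and Cox4i1 at 600 ± 122. None of the 4 complex II subunits was called by edgeR, although all 4 had an unadjusted p under 0.05 and DESeq2 called 1. With spike-in totals no subunit was called higher at either stage, 6 were called lower at remyelination, and the medians were 0.38 and -0.72 beside -1.55 and -2.24 for all genes.

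Nuclear genes also encode the machinery that copies, transcribes, processes and translates mitochondrial RNA. Of the mitochondrial ribosomal proteins, 0 of 77 were called by edgeR on day 3 and 0 of 78 at each cuprizone stage, where 14 and 10 had an unadjusted p under 0.05, 3 on day 3, and DESeq2 called 1 higher on day 3, 8 higher and 1 lower at demyelination and 4 higher at remyelination. Over all genes DESeq2 called 232 higher and 117 lower on day 3, 651 and 1294 at demyelination, and 634 and 938 at remyelination. Of the 16 tested genes of mitochondrial transcription and replication none was called by edgeR in these comparisons, 1 had an unadjusted p under 0.05 on day 3, and DESeq2 called 1 lower on day 3. Tfam, which packages mitochondrial DNA and starts its transcription, was at 40.8 ± 35.7 CPM on day 3 and 17.3 ± 19 in facial nucleus (edgeR adjusted p = 0.943). Of 23 genes of RNA processing and turnover, Rexo2, a nuclease that clears short mitochondrial RNA fragments, was the only one called. It was at 195 ± 60.1 CPM at demyelination and 39.4 ± 15.5 in corpus callosum. At that stage 3.08% of all genes were called higher, and 1 of 23 is near that share, so it is not a result about the list. Lrpprc, which protects mitochondrial mRNAs from decay, was at 103 ± 57.3 CPM at demyelination against 54.6 ± 30.5, which did not pass the test (edgeR adjusted p = 0.599).

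Between single cells the mitochondrial share had a wider middle range on day 3 and at both cuprizone stages than in the untreated tissue of each. Its median and middle range were 1.06% and 0.628% to 1.62% in facial nucleus and 3.09% and 1.30% to 4.79% on day 3. In corpus callosum they were 1.19% and 0.771% to 1.80%, at demyelination 1.56% and 0.424% to 4.16%, and at remyelination 2.24% and 1.18% to 4.56%. The demyelination cells thus spread to both sides of the untreated ones.

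Cells above 5% were 21.8% ± 6.39 of a mouse's cells on day 3, 15.7% ± 5.56 at demyelination and 23.6% ± 6.77 at remyelination, over 4 mice each, and 1.95% ± 1.32 in facial nucleus and 1.64% ± 2.09 in corpus callosum. No treated mouse of these 3 groups fell within the range of its untreated tissue, the lowest being 16.2%, 8.33% and 13.9% and the highest untreated 2.86% and 4.35%. Cells below 0.1% were 12.4% of cells at demyelination (9.76% to 19.4% by mouse) and 10.9% in hippocampus (7.69% to 15.4%), but 0.578% in corpus callosum. At demyelination those low cells had a median of 1683.5 detected genes against 2232 in the rest, but 518632 gene counts against 461590. In hippocampus the medians were 2707 against 2708 detected genes and 217794 against 245163 gene counts. With log levels averaged over cells, 1 of the 9 countable genes was above 0 at demyelination and the other 8 were below, from -0.94 to 0.22. With equal weight for each cell but CPM averaged before the log, all 9 were above 0, from 0.50 to 1.27, and 6 were called. On TMM-scaled sums all 9 were also above 0, from 0.98 to 1.63.

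**Figure D5:**
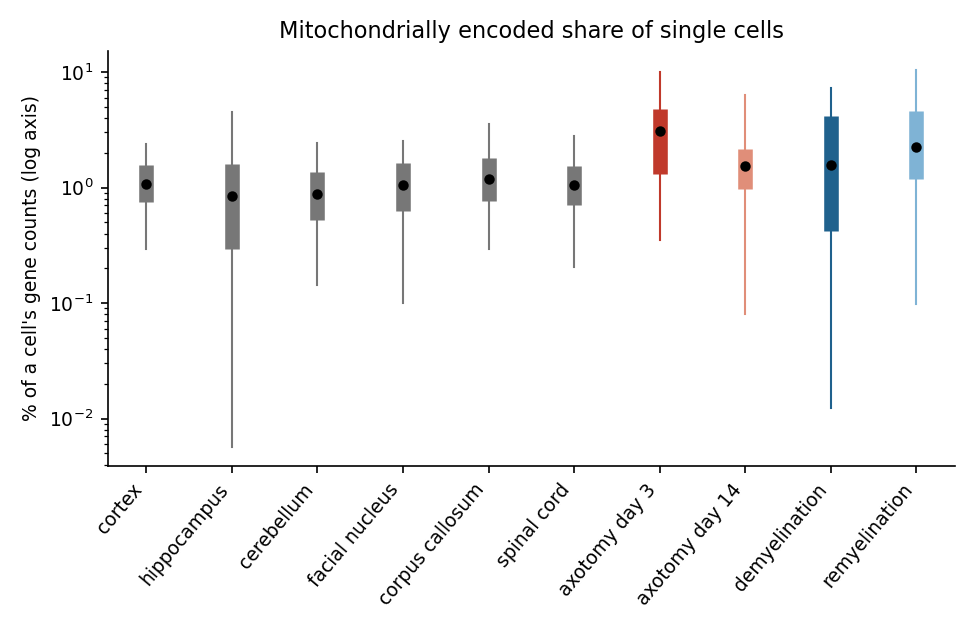
Mitochondrial share of a cell's gene counts by group, on a log axis, with a dot at the median of the kept cells, a thick bar from the 25th to the 75th percentile and a thin line from the 5th to the 95th. The day 3 bar, 1.30% to 4.79%, starts above the facial nucleus median of 1.06%, and the demyelination bar, 0.424% to 4.16%, reaches both below and above that of corpus callosum.

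In 168 cells of day 3 the mitochondrial share went with Malat1 at a Spearman rho of -0.64 and with P2ry12 at -0.45, where a share of 1 pool of counts forces some negative relation. With total gene counts the rho was 0.32 and with detected genes -0.04. In the 161 cells at demyelination the same relations were 0.13, 0.22, -0.09 and 0.26. In the untreated groups the rho with Malat1 ran from -0.36 in hippocampus to 0.00 in cerebellum. Only 3 of the 1647 cells gave 25% or more of their counts to chrM, the pair in hippocampus and a cell of day 14 replicate 1 with 26.6%, which held 24% of its mouse's chrM counts. Without cells of 25% or more, day 14 was at 2.27% ± 0.291 of gene counts, still without overlap with facial nucleus, and its 2 called RNAs were no longer called, with estimates of 1.37 for mt-Rnr1 and 0.86 for mt-Cytb.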

How the data were processed

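Smart-seq2 libraries of single microglia were deposited by the authors as raw read counts per gene and well, for which the submitters' processing notes name STAR 2.5.2b, featureCounts 1.5.1 and GRCm38. Not given in the sources used here are the gene annotation's release, the strand setting and the treatment of reads with several matches. Wells were kept and summed per mouse and group into 40 sums, with no filter on the mitochondrial share. Each family (untreated regions, axotomy, cuprizone) was fitted in edgeR 4.0.16 (TMM scaling, filterByExpr, robust quasi-likelihood test) in R 4.3.3, with Benjamini-Hochberg adjustment over all genes tested and a threshold of 0.05. DESeq2 1.42.0, spike-in totals, upper-quartile scaling, other cell filters, a mean of log2(CPM + 1) per cell tested with limma 3.58.1 and leaving out each mouse were alternatives. CPM is relative to a library's gene counts, scaled by TMM within a fit where a comparison is given. Summed levels of gene lists, and the Fn1 and Ccr2 levels given beside them, are not scaled by TMM. On counts simulated for axotomy day 3 against facial nucleus (22417 genes), the test recovered 25.5% of 94 genes changed 2-fold and 98.1% of 106 changed 4-fold, with 3 false calls. The simulation gave every gene the same set spread and changed only well-counted genes, so these rates are not the power of the test in the real data. Sequences came from GENCODE transcripts of GRCm38. Named were all chrM genes, and of each nuclear list of mitochondrial function the called members, at most the 6 with the smallest p, or preset examples where none was called. Called members of the marker lists are named in part. The members and lists were chosen with earlier results of these data known. No 2 sums of a group agreed within sampling noise (lowest chi-square per degree of freedom 68.2 in 60 pairs). Counts carry no molecular identifiers, so they are not independent molecules.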

Additional observations from a re-analysis of the deposited data

Results flagged for a closer look

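In 160 groups of 4 mice examined, 3 had a single mouse far from the other 3 by Dixon's test, where chance gives about 1 in 20. Cortex replicate 2 had 0.00326% of gene counts in mitochondrial tRNAs, against 0.00497% to 0.00526% in the other mice. Facial nucleus replicate 1 had 0.0718 chrM counts per spike-in count, against 0.102 to 0.108. Cerebellum replicate 2 had mt-Nd1 at 2170 CPM, against 1940 to 1970.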

How the results depend on the processing

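Counts of chrM RNAs called are given first. Among the 6 regions (1 called) DESeq2 called 3, and 0 were called with no filter on low counts, spike-in totals, cells under 25% mitochondrial share, cells with at least 1500 detected genes, equal weight for each cell or the replicate block. Without replicate 1 it was 3 and without 2, 3 or 4 it was 0. In place of mt-Rnr2, the 1 called was mt-Rnr1 with no filter on wells and mt-Nd5 with the mean of log values. For cortex against hippocampus DESeq2 called 3. Day 3 kept 8 in every fit that left out a mouse, with 3 called by spike-in totals and 5 by the mean of log values per cell. Day 14 against facial nucleus (2) had 4 with no filter on low counts or equal weight for each cell, 1 with the replicate block, and 0 with spike-in totals, the 25% limit, no filter on wells, at least 100000 gene counts, no proliferating cells, 1500 genes, the mean of log values, all 10 groups or only the groups compared, and 0 to 2 without a mouse. Day 14 against day 3 (1) had 8 with no filter on low counts, 4 with DESeq2 or 1500 genes, 3 with equal weight, 2 with the 25% limit or all 10 groups, 0 with upper-quartile scaling, spike-in totals, no filter on wells, 100000 counts, no proliferating cells, the mean of log values or only the groups compared, and 0 to 2 without a mouse (2 without day 14 replicate 4). Demyelination (7) and remyelination (9) had 0 with spike-in totals and with the mean of log values, and 6 to 7 and 8 to 9 without a mouse; the mt-Rnr1 call at demyelination was lost without corpus callosum replicate 2 or 4 or demyelination replicate 1, 2 or 3, and the mt-Nd6 call at remyelination without corpus callosum replicate 4. Remyelination against demyelination had 2 with no filter on low counts, and the difference of effects 3 with DESeq2 and 5 with spike-in totals or the mean of log values. The 1500-gene limit was chosen after seeing the data.

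Reversed estimates were all in the cuprizone groups. At demyelination spike-in totals gave -0.06 for mt-Nd1, -0.07 for mt-Nd2, -0.20 for mt-Nd4, -0.13 for mt-Nd6 and -0.01 for mt-Cytb. The mean of log values gave -0.25 for mt-Rnr1, -0.81 for mt-Nd1, -0.07 for mt-Nd2, -0.80 for mt-Co1, -0.92 for mt-Nd4, -0.45 for mt-Nd5, -0.57 for mt-Nd6 and -0.94 for mt-Cytb. At remyelination spike-in totals gave -0.02 for mt-Rnr1, -0.20 for mt-Nd1, -0.13 for mt-Nd2, -0.48 for mt-Co1, -0.44 for mt-Nd4, -0.31 for mt-Nd5, -0.45 for mt-Nd6 and -0.31 for mt-Cytb. The cause was not tested.

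Over all genes DESeq2 called 211 against 23 among regions, 778 against 0 for cortex against hippocampus, 349 against 28 on day 3, 189 against 3 on day 14, 238 against 1 between them, 1945 against 725 at demyelination and 1572 against 438 at remyelination. The replicate block called 39 against 23 genes among regions and 447 against 725 at demyelination. Same-numbered sums correlated by a median of 0.0194 among regions, 0.000444 for axotomy and 0.00392 for cuprizone, and each correlated best with its own number in 24 of 24, 3 of 12 and 6 of 12 sums. For the regions this is a hint, from the data and not the labels, that a number may mark a mouse.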
